A study of Rattus norvegicus with 4 samples.

Results

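Genes for sugar, nucleotide-sugar and monocarboxylate carriers were examined in NR8383 cells, a rat alveolar macrophage line established by lung lavage. The genes were taken by symbol alone: rat RefSeq symbols made of Slc2a, Slc16a, Slc35a to Slc35g or Slc37a followed by digits. Such symbols numbered 56, and 51 of them, read by 57 probes, were among the 16579 genes measured. No probe matched Slc2a7, Slc16a9, Slc35b3, Slc35f3 or Slc35f4. All 4 samples came from cells, passaged 20 times and seeded for 48 h in flasks, that were exposed for 4 h to NRCWE042, a preparation of COOH-functionalized carbon nanotubes, at 6.8 cm2/cm2. The labels call the replicates biological. They form 1 group. The study also had cells incubated without nanotubes, which were not analysed here, so the values describe exposed cells and hold no effect of the exposure. The culture is 1 cell line grown partly adherent and partly floating, and in such a bulk sample fewer cells with a transcript and less of it per cell cannot be told apart.

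These carriers stand at the points where sugar carbon crosses a membrane. Slc2a proteins (the GLUT family) let hexoses and related polyols pass down their gradient, Slc16a proteins (the MCT family) move lactate, pyruvate, ketone bodies, aromatic amino acids or thyroid hormones, and Slc37a proteins exchange sugar phosphates for phosphate at the endoplasmic reticulum. Slc35 proteins bring nucleotide sugars, made in the cytosol or nucleus, into the Golgi and endoplasmic reticulum, where glycosyltransferases use them to build the glycans of secreted and surface proteins. Activated macrophages are known for high glucose uptake and lactate release.

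Levels are log2 of the array software's processed signal minus the 75th percentile of that signal over all sample probes of the same array, so that 0 is the 75th percentile and 1 unit is a doubling of signal. A gene was called detected where, on each of the 4 arrays, a probe of it had more than 50% of its spots flagged by the software as well above background. Probes differ in affinity, so levels of different genes were not ranked. Errors are SD over the 4 arrays. Which arrays of a gene were high or low is stated on this scale; how this depends on the scaling is given with the deviations from all genes. With 1 group there is no comparison to test, and no p-value is given.

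Between 31.1% and 38.8% of sample probes were well above background per array, with the lowest share on replicate 4, where the 75th percentile of signal was 49.0 against 127.9, 130.9 and 98.5 on replicates 1, 2 and 3. Spike-in signals on replicates 2 to 4 lay between -0.10 and 0.20 log2 units from replicate 1. Pearson correlations of the 25 detected carriers between pairs of arrays lay between 0.958 and 0.998 over the 6 pairs; the value for replicates 1 and 2 was 0.998 and that for replicates 3 and 4 was 0.992. No 2 arrays held identical spot values. Replicate 3 had a dim patch, covering 18 of 504 blocks of spots, which held probes of Slc2a8 and Slc35a1 among the detected carriers. Of 10 macrophage markers 8 were detected, among them Cd68 at 7.47 ± 0.24 and Csf1r at 0.96 ± 0.10. Marco and Adgre1 were not detected on any array. Of 26 measured markers of other lineages 5 were detected (Pecam1, Cdh5, Vwf, Cd3d and Hba-a1). The first 3 are 3 of the 4 endothelium markers, with Vwf at 5.50 ± 0.29. None of the 4 fibroblast markers was detected.

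Of the 51 measured carriers 25 were detected on all 4 arrays, which is 49.0%, against 44.4% of all measured genes. A further 3 were well above background on 1 to 3 arrays, against 9.43% of all genes, and 23 on none, against 46.1%. By family the shares were as follows. Of the 10 measured Slc35 genes with an assigned nucleotide-sugar or nucleotide substrate 9 were detected, or 90.0%. Of the 13 measured monocarboxylate carriers 3 were, or 23.1%. The hexose carriers stood at 4 of 11, or 36.4%, the other Slc35 genes at 7 of 13, or 53.8%, and the sugar-phosphate carriers at 2 of 4. With a looser flag, signal positive and significantly above background, the order changed. The shares were then 10 of 10 for Slc35 genes with an assigned substrate, 8 of 13 (61.5%) for the monocarboxylate carriers, 5 of 11 (45.5%) for the hexose carriers, 8 of 13 for the other Slc35 genes and 3 of 4 for the sugar-phosphate carriers, against 55.7% of all genes. These shares are descriptions of small sets and were not tested against each other.

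**Figure D1:**
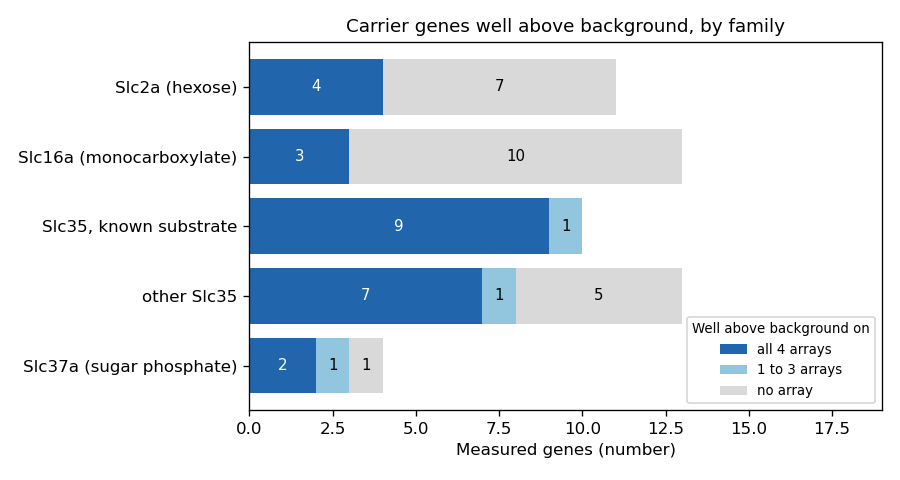
Measured carrier genes by family (horizontal axis, number of genes), split by whether they were well above background on all 4 arrays, on 1 to 3 arrays or on none. Among Slc35 genes with a known substrate 9 of 10 were on all 4 arrays, whereas 10 of 13 monocarboxylate carriers were on none.

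Among the hexose carriers, Slc2a1, Slc2a5, Slc2a8 and Slc2a9 were detected. Slc2a1 (accession NM_138827 on the array) encodes GLUT1, the glucose carrier of most dividing cells and the main one of macrophages. Its level was 4.84, 4.88, 5.42 and 5.63 on replicates 1 to 4, a mean of 5.19 ± 0.39 (SD, n = 4). The arrays of replicates 3 and 4 were the higher ones, and the highest array was 1.72-fold the lowest. Slc2a9 encodes GLUT9, a urate and fructose carrier, and read 3.92, 3.94, 3.91 and 4.20, a mean of 3.99 ± 0.14 (SD, n = 4), the smallest SD of the 25 detected carriers. Slc2a5 encodes GLUT5, the fructose carrier, and read 0.98, 0.99, 1.53 and 1.36, a mean of 1.22 ± 0.27 (SD, n = 4).

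Slc2a8 encodes GLUT8, a hexose carrier kept on intracellular membranes. It read 2.97, 2.92, 2.45 and 3.32, a mean of 2.91 ± 0.36 (SD, n = 4). Its lowest value was on replicate 3, where its spot lies in the dim patch, and the part of that patch in the value was not tested. The remaining 7 hexose carriers were well above background on no array: Slc2a2 (GLUT2, of liver and pancreatic beta cells), Slc2a3 (GLUT3, a high-affinity glucose carrier best known from neurons), Slc2a4 (GLUT4, the insulin-responsive carrier of muscle and fat), Slc2a6, Slc2a10, Slc2a12 and Slc2a13, a proton-coupled myo-inositol carrier. Slc2a3 was read by 2 probes, and the 10 spots of its brighter probe on each array gave 0 of 40 spots well above background. Of the 7, only Slc2a12 met the looser flag on all 4 arrays.

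Of the monocarboxylate carriers, Slc16a1, Slc16a10 and Slc16a13 were detected. Slc16a1 encodes MCT1, the proton-coupled carrier that moves lactate and pyruvate in either direction, and read 1.28, 1.26, 1.61 and 1.65, a mean of 1.45 ± 0.21 (SD, n = 4). Its highest array was 1.31-fold its lowest. Slc16a10 encodes TAT1, a carrier of aromatic amino acids and thyroid hormone, and read -0.38, -0.59, 0.14 and 0.23, a mean of -0.15 ± 0.39 (SD, n = 4). Slc16a13 (NM_001005530), MCT13, read -1.48, -1.33, -0.42 and -0.46, a mean of -0.92 ± 0.56 (SD, n = 4). It ranged over 1.06 log2 units, or 2.09-fold. In all 3 genes replicates 3 and 4 were higher than replicates 1 and 2.

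Slc16a3, which encodes MCT4, the low-affinity lactate exporter of strongly glycolytic cells, was not detected. Its probe (NM_030834), printed 10 times per array, gave 0 of 40 spots well above background. Replicate 3 had part of these spots in its dim patch, and on the other arrays its processed signal was 6.56, 6.40 and 5.25 for replicates 1, 2 and 4, against 5.92, 6.50 and 5.45 for the 95th percentile of the negative control spots. A probe that gives no signal bounds the level only as far as that probe can bind its transcript. Slc16a7 (MCT2, a high-affinity lactate carrier), Slc16a12 (a creatine carrier), Slc16a4, Slc16a5, Slc16a6, Slc16a8, Slc16a11 and Slc16a14 were also well above background on no array. Of these, Slc16a5, Slc16a6, Slc16a8 and Slc16a14 met the looser flag on all 4 arrays.

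Of the Slc35 genes with assigned substrates all but Slc35d1 were detected. Slc35b1, which encodes the ATP and ADP exchanger of the endoplasmic reticulum, read 5.82, 5.94, 6.21 and 6.27, a mean of 6.06 ± 0.21 (SD, n = 4). Slc35b2, the carrier of the sulfate donor PAPS into the Golgi, read 3.87, 3.77, 4.52 and 4.68, a mean of 4.21 ± 0.46 (SD, n = 4). Slc35c1, the Golgi GDP-fucose carrier, read 4.03, 3.96, 4.59 and 4.72, a mean of 4.32 ± 0.38 (SD, n = 4). For all 3 the lower arrays were replicates 1 and 2, but with the normexp background, an alternative background correction, Slc35b1 read 5.33, 5.47, 5.14 and 4.95, so that these were its higher arrays.

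Slc35a2, the UDP-galactose carrier, read 1.50, 1.51, 2.30 and 2.48, a mean of 1.95 ± 0.52 (SD, n = 4), with the highest array 1.97-fold the lowest. Slc35a4 (NM_147140), a Golgi protein assigned to the transport of CDP-ribitol, read 5.09, 4.96, 5.85 and 6.17, a mean of 5.52 ± 0.59 (SD, n = 4). It ranged over 1.21 log2 units, or 2.32-fold, with replicates 3 and 4 high.

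Slc35a1, Slc35a3 and Slc35d2 ran the other way. Slc35a1 brings CMP-sialic acid into the Golgi and read 1.34, 1.51, 0.63 and 0.57, a mean of 1.01 ± 0.48 (SD, n = 4). Its spot on replicate 3 lies in the dim patch, and its lowest value was on replicate 4. Slc35a3, a UDP-N-acetylglucosamine carrier, read 2.59, 2.61, 2.21 and 1.78, a mean of 2.30 ± 0.39 (SD, n = 4). Slc35d2, also assigned to UDP-N-acetylglucosamine, read -0.09, 0.09, -0.15 and -0.65, a mean of -0.20 ± 0.32 (SD, n = 4). In each of the 3 the lowest array was replicate 4 and the highest replicate 2.

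Slc35b4, a carrier of UDP-xylose and UDP-N-acetylglucosamine, read 1.81, 1.98, 2.07 and 1.61, a mean of 1.87 ± 0.20 (SD, n = 4). Slc35d1, which carries UDP-glucuronic acid and UDP-N-acetylgalactosamine for the making of chondroitin, was well above background on 3 arrays and not on replicate 4. Its second probe was well above background on 0 arrays.

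Among the other Slc35 genes 7 were detected. Slc35c2, a Golgi and early-secretory protein that affects fucosylation (NM_001107803 on the array), read 4.62, 4.72, 5.61 and 5.92, a mean of 5.22 ± 0.65 (SD, n = 4), the largest SD of the 25. It ranged over 1.30 log2 units, or 2.47-fold. Slc35e1 read 2.94, 2.91, 3.47 and 3.60, a mean of 3.23 ± 0.36 (SD, n = 4). Slc35e4 read 2.34, 2.24, 2.59 and 2.90, a mean of 2.52 ± 0.29 (SD, n = 4). In these 3 genes replicate 4 was highest.

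Slc35f6 read 1.38, 1.19, 1.48 and 1.88, a mean of 1.48 ± 0.29 (SD, n = 4), and Slc35g1 read 0.46, 0.36, 0.73 and 0.76, a mean of 0.58 ± 0.20 (SD, n = 4). Slc35f5 read 1.11, 1.40, 1.05 and 1.02, a mean of 1.14 ± 0.17 (SD, n = 4), and Slc35a5 read -0.06, 0.19, -0.39 and -0.61, a mean of -0.22 ± 0.35 (SD, n = 4). The last pair was lowest on replicate 4. Slc35e3 was well above background on 2 arrays, and Slc35d3, Slc35f1, Slc35f2, Slc35g2 and Slc35g3 on none.

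Slc37a4 encodes the glucose-6-phosphate carrier of the endoplasmic reticulum, which feeds the hydrolysis of that sugar phosphate. It read 3.27, 3.30, 3.83 and 4.08, a mean of 3.62 ± 0.40 (SD, n = 4). Slc37a1, a sugar-phosphate exchanger, read 2.46, 2.50, 3.27 and 3.38 with its brighter probe, a mean of 2.90 ± 0.49 (SD, n = 4). Its other probe was also well above background on all 4 arrays and read -1.97, -1.40, 0.19 and -0.21, so the 2 probes shared the higher arrays. Slc37a2, a sugar-phosphate exchanger known from macrophages, was well above background on 1 array and read -2.18, -2.43, -1.96 and -1.57. Slc37a3 was on no array.

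**Figure D2:**
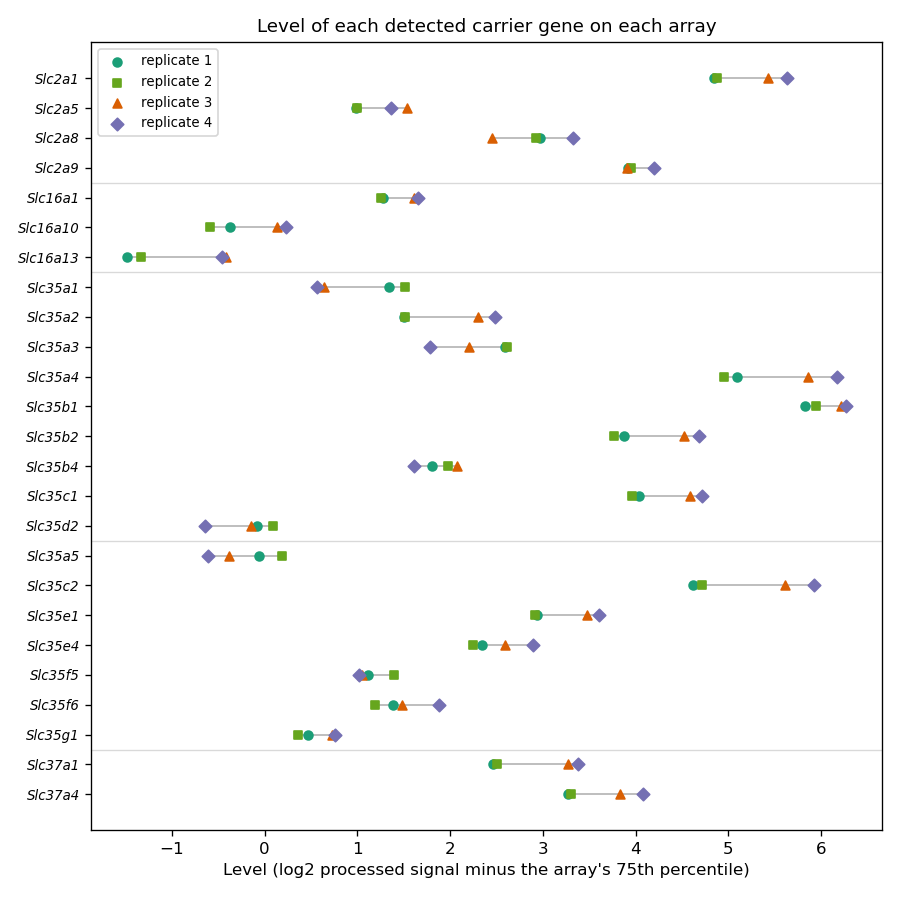
Level of the 25 detected carriers on each array (horizontal axis, log2 processed signal minus the array's 75th percentile; the points are the 4 replicates and the grey line spans them). Slc35c2 spans 1.30 log2 units between its lowest and highest array, Slc2a9 0.29.

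The median SD of the 25 detected carriers was 0.36 log2 units, against 0.25 over all 7366 detected genes, while their median level was 2.30 against 2.36. The difference in SD did not hold under every scaling: the values were 0.23 and 0.23 with the normexp background and 0.37 and 0.58 with spike-in scaling. The normexp offset of 50 draws dim signals together, and its part in these values was not tested. A range over 1 log2 unit was seen in 3 of the 25, Slc16a13, Slc35a4 and Slc35c2, against 13.9% of all detected genes. Which genes did so depended on the setting. Slc35a4 and Slc35c2 no longer ranged over 1 unit without replicate 4, and Slc16a13 no longer did without replicate 1 or with the 75th percentile of detected probes. With the normexp background the genes ranging over 1 unit were Slc2a8, Slc35a1, Slc35a3 and Slc35c2. With spike-in scaling they were 12 carriers, none of those 3 among them, and the median SD of all detected genes was then 0.58. The share of all detected genes with such a range is not given for these settings, so these counts describe the carriers only.

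Deviations from each gene's own mean over the 4 arrays were then set beside the median deviation of all detected genes on the same array. By construction a gene that is high on some arrays is low on others, so the values of different arrays are not independent results. On replicate 4 the median deviation of the carriers was 0.38 log2 units and that of all detected genes 0.10, a difference of 0.28. On replicates 1, 2 and 3 the carriers' medians were -0.23, -0.27 and 0.21 against -0.07, -0.07 and 0.06, which gives differences of -0.16, -0.21 and 0.15. These sizes depended on single arrays: the difference on replicate 1 was -0.08 without replicate 3, that on replicate 2 was -0.13 without replicate 4, and that on replicate 3 was 0.08 without replicate 1 and 0.09 without replicate 2. The difference on replicate 4 was between 0.19 and 0.29 with 1 other array left out. With spike-in scaling the carriers' own median deviations changed sign, to 0.21, 0.28 and -0.47 on replicates 1, 2 and 4, where the all-gene medians were 0.37, 0.49, -0.09 and -0.75 on replicates 1 to 4. That scaling moves all genes of an array alike, so it cannot alter the differences. With the normexp background the difference on replicate 4 was 0.16. The lower total signal of replicate 4 moved with this pattern, and its part in it was not tested.

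**Figure D3:**
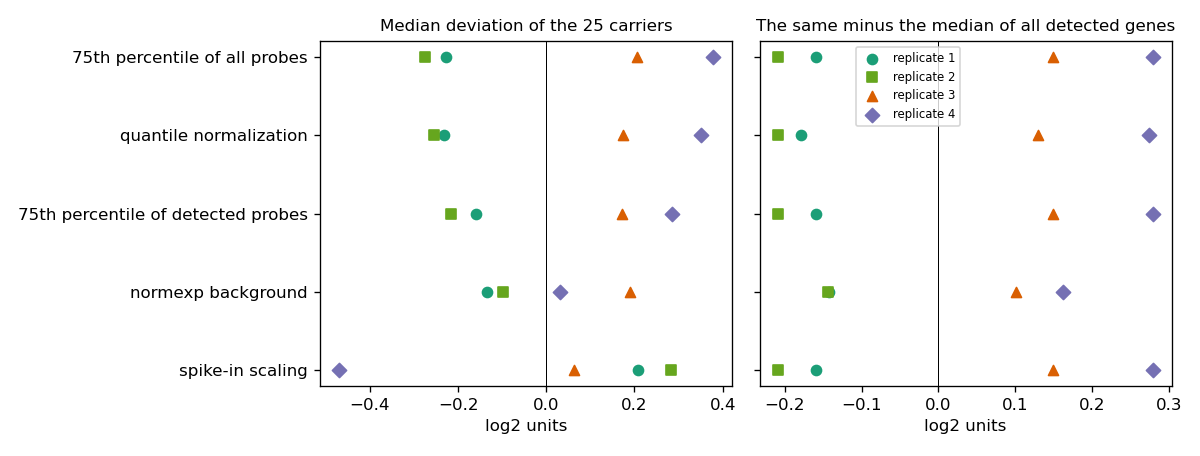
Median deviation of the 25 detected carriers from their own means (left, log2 units) and the same minus the median of all detected genes (right) under 5 ways of scaling, with 1 symbol per replicate. The left panel changes sign with spike-in scaling on replicates 1, 2 and 4; in the right panel spike-in scaling and the percentile of detected probes repeat the first row by construction, and replicate 4 lies at 0.28, 0.27 with quantile normalization and 0.16 with the normexp background.

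On replicate 4, 19 of the 25 carriers lay above their own mean, against 59.6% of all detected genes, and 17 had their highest value there, against 46.4%. The same 19 also lay above the all-gene median deviation. With quantile normalization and with the normexp background the number was again 19, although Slc35b1 lay below and Slc35a5 lay above with normexp, and Slc2a5 lay below when replicate 1 or replicate 2 was left out. On replicate 1, 5 of the 25 lay above their own mean, against 38.7% of all genes, on replicate 2, 7, against 41.9%, and on replicate 3, 18, against 61.9%. Counts on different arrays are not independent, since each gene is set against its own mean over the same arrays.

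By family, the 4 detected hexose carriers, the 3 monocarboxylate carriers and both sugar-phosphate carriers lay above the all-gene median on replicate 4. The 6 that lay below it were all Slc35 genes: Slc35a1, Slc35a3, Slc35a5, Slc35b4, Slc35d2 and Slc35f5. That family makes up 16 of the 25 detected carriers. Relative to the all-gene median, the deviation on replicate 4 was 0.60 for Slc35c2, 0.55 for Slc35a4 and 0.43 for Slc35a2. On the low side it was -0.61 for Slc35a3, -0.55 for Slc35d2 and -0.54 for Slc35a1. With the normexp background Slc35d2 was at -4.2e-05. The others were then 0.52 for Slc35c2, 0.37 for Slc35a4, 0.23 for Slc35a2, -0.59 for Slc35a3 and -0.33 for Slc35a1. That background adds an offset of 50, which draws dim signals together, and Slc35d2 had a processed signal of 31.3 on replicate 4. The part of the offset in its value was not tested. Across all detected genes the 5th and 95th percentiles of the unadjusted deviation on that array were -0.45 and 0.65. Slc35c2 at 0.70 and Slc35a4 at 0.65 lay above the upper one, and Slc35a3 at -0.51 and Slc35d2 at -0.45 below the lower one.

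**Figure D4:**
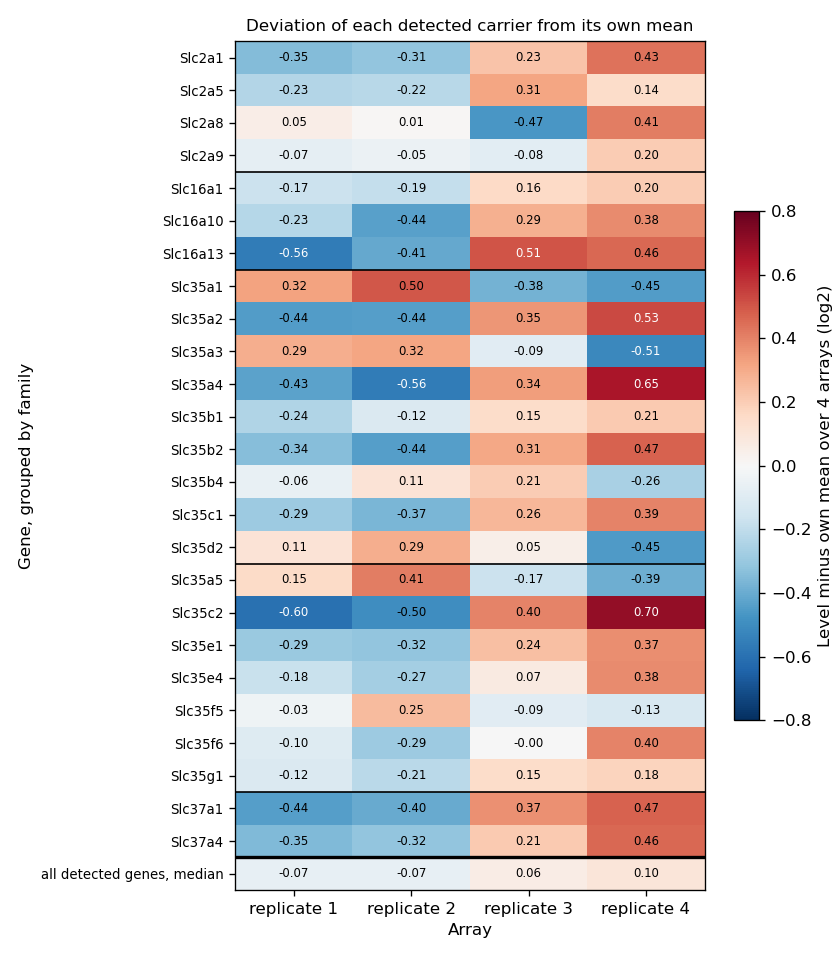
Level of each detected carrier minus its own mean over the 4 arrays (colour and number, log2 units), by family, with the median of all detected genes in the bottom row. Replicate 4 runs from -0.51 in Slc35a3 to 0.70 in Slc35c2, and the 6 carriers below the all-gene median there are Slc35 genes, as are 16 of the 25 shown.

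Promoters are shown for the carriers with the extreme deviations on replicate 4, chosen by that deviation alone among those with a promoter window. All are Slc35 genes, as are 16 of the 25 detected carriers. RefSeq promoter windows of the GRCr8 assembly, from 250 bases before to 50 after the gene start, were found for 37 of the 51 measured carriers and 20 of the 25 detected. The pair with the highest deviation among those with a window, Slc35c2 and Slc35a4, comes first, then the pair with the lowest, Slc35a3 and Slc35d2. With the normexp background Slc35d2 lay at the all-gene median deviation. Each is printed 5′ to 3′ on the gene's strand, and capitals mark matches to the motifs listed after them.
Slc35c2, GRCr8 chr3:174442733-174443032, minus strand: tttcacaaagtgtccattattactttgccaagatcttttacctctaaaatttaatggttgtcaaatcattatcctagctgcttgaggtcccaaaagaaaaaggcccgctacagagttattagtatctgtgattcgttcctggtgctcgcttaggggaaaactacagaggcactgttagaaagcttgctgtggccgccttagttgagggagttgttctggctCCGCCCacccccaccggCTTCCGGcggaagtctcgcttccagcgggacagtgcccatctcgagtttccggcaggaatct
Slc35a4, GRCr8 chr18:28555221-28555520, plus strand: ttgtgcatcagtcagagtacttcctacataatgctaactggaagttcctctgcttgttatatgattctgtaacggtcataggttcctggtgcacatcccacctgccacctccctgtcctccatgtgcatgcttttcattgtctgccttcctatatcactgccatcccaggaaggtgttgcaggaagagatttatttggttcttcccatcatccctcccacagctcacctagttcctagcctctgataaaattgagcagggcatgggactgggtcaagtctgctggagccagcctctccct
Slc35a3, GRCr8 chr2:207344168-207344467, minus strand: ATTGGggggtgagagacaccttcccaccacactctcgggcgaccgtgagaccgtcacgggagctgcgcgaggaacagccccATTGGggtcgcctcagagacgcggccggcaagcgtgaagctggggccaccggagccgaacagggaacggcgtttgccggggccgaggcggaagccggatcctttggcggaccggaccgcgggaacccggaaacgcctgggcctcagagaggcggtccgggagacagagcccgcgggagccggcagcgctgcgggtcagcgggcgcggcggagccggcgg
Slc35d2, GRCr8 chr17:993668-993967, plus strand: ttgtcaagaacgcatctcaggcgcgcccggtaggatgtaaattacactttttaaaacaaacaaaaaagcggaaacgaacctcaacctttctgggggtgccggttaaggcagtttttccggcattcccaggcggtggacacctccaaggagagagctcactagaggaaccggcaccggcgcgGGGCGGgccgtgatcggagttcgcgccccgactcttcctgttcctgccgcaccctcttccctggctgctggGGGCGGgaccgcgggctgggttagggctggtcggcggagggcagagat

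The windows of the first pair held 12 and 1 CpG dinucleotides at GC contents of 49.0% and 49.3%. The windows of the second pair held 39 and 25 at 72.7% and 60.7%. Slc35c2 held a GC box on the opposite strand at bases 222 to 227 of its window and an ETS site on the opposite strand at bases 239 to 245. Slc35a4 held none of the 8 motifs. Slc35a3 held 2 CCAAT boxes on the opposite strand and Slc35d2 held 2 GC boxes. A match is a run of letters only, and its absence from a window says nothing about a factor.

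Over the 20 detected carriers with a window the median was 61.5% GC and 19 CpG, against 60.7% and 21 over 5940 detected genes and 52.7% and 8 over all 24206 windows. The Spearman correlation of CpG count with the deviation on replicate 4 was -0.40 over the 20 carriers and -0.03 over the 5940 genes. The 4 carriers whose windows are printed, chosen by that deviation, are among the 20, and the correlation was not tested. The corresponding values for GC content were -0.21 and 0.06. The correlation with mean level was larger, at 0.55 over the 25 detected carriers and 0.12 over 7366 genes, though levels of different probes are not strictly comparable. These are descriptions across genes that share their arrays and base composition.

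**Figure D5:**
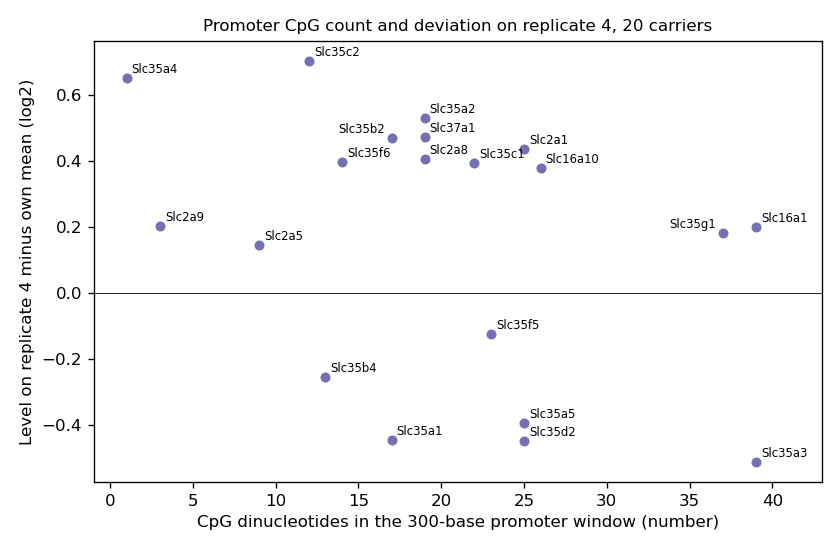
Number of CpG dinucleotides in the 300-base promoter window (horizontal axis) against the level on replicate 4 minus the gene's own mean (vertical axis, log2 units) for the 20 detected carriers with a window. Slc35a4, with 1 CpG, deviates by 0.65 and Slc35a3, with 39, by -0.51, while Slc16a1, also with 39, deviates by 0.20.

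The motifs were searched on both strands. The GC box (GGGCGG) was in 12 of the 20 windows, against 62.9% of windows of detected genes and 35.9% of all windows. The ETS site (CCGGAAG) was in 8, against 21.2% and 9.49%, and all 8 belonged to Slc35 genes: Slc35a1, Slc35a2, Slc35a5, Slc35b4, Slc35c1, Slc35c2, Slc35f6 and Slc35g1. Most of the 20 windows belong to that family. Of these 8 genes 5 lay above the all-gene median on replicate 4 and 3 below it (Slc35a5 above it with the normexp background). The CCAAT box (CCAAT) was in 8, against 39.6% and 37.8%. The core of the hypoxia-response element (ACGTG) was in 5, against 26.9% and 19.8%, Slc2a1 among them. The E-box (CACGTG) was in 2, against 10.2% and 6.74%, and the Golgi stress element (ACGTGGC) in 1, Slc16a1, against 3.82% and 2.42%. Both hold the hypoxia core, so their matches overlap with it. The cAMP element (TGACGTCA) and the AP-1 site (TGANTCA) were in 0 of the 20, against 3.47% and 5.22% of detected genes and 1.91% and 7.33% of all windows.

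The pathways that feed these carriers were counted in the same way. In glycolysis and pyruvate entry 17 of 20 measured genes were detected, among them Aldoa, Eno1, Gapdh and Gpi, and Hk1, Pfkm and Aldoc were on no array. Slc2a1 and Slc16a1 thus stood beside a glycolytic set in which the hexokinases Hk2 and Hk3 were detected and Hk1 was not. Ldha, the lactate dehydrogenase subunit that makes lactate, read 9.31, 9.21, 9.04 and 9.37. All 6 measured chaperone and trafficking genes were detected, including Arrdc4, Bsg, Emb and Gipc1. Bsg encodes basigin, the chaperone of MCT1 and MCT4, and read 5.81, 5.73, 6.13 and 6.27. Emb, embigin, read 2.64, 2.79, 2.48 and 2.23, highest on replicate 2 where Bsg was lowest.

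Of 25 measured nucleotide-sugar synthesis genes 21 were detected, including Cmas, Galk1 and Galt, 3 were on 1 to 3 arrays and Gfpt2 was on none. The galactose-activation genes Galk1 and Galt shared their higher arrays, replicates 3 and 4, with Slc35a2. An exception was Galt on replicate 3 with the normexp background, at -0.08 relative to the all-gene median. Ugp2 and Pgm2, of the same list, ran the other way. On the main scale they were at -0.47 and -0.56 relative to the all-gene median on replicate 4. Of the 21 detected genes of the list 12 lay above their own mean on replicate 4, against 59.6% of all detected genes. Galk1, the galactokinase, read 7.34, 7.23, 8.04 and 8.52, and Galt, the uridylyltransferase, read 1.41, 1.48, 1.98 and 2.42. Gnpnat1, an acetyltransferase on the path to UDP-N-acetylglucosamine, read 0.74, 0.88, -0.04 and -0.81. It was lowest on replicate 4, as were Slc35a3 and Slc35d2, though with the normexp background Slc35d2 lay at the all-gene median there. On replicate 3 Slc35d2 was 0.05 above its own mean, while Gnpnat1 was at -0.29 relative to the all-gene median. Slc35b4 was lowest on replicate 4 but highest on replicate 3. For sialic acid the genes did not share 1 pattern. Cmas, which makes the CMP-sialic acid that Slc35a1 carries, read 3.22, 3.25, 3.58 and 3.59, Gne, which opens that path, read 3.09, 3.11, 3.60 and 3.88, and Nans, the synthase, read 5.15, 5.14, 5.39 and 5.51. Slc35a1 was lowest on replicates 3 and 4, and its spot on replicate 3 lies in the dim patch. Nanp, the phosphatase of the path, was also lowest on those arrays. It was well above background on 2 arrays and read -2.10, -1.61, -2.37 and -2.94. Its values on replicates 3 and 4 lay below the lowest level of a spot flagged well above background there, -2.09 and -1.24. For GDP-fucose, Gmds ran from 1.61 on replicate 2 to 0.56 on replicate 4. Gfus, the next enzyme, read 4.76, 4.67, 5.05 and 5.02 and had its higher arrays in common with Slc35c1. On these arrays, replicates 3 and 4, 61.9% and 59.6% of all detected genes lay above their own mean. Relative to the all-gene median Gfus was at 0.04 on replicate 4, and it kept that sign in 10 of 13 settings. Enzymes with values in these paragraphs were named after their values were seen. Relative to the all-gene median on replicate 4, Cmas was at 0.09, and at 0.03 with the normexp background, while with that background Galk1 was at 0.45, Galt at 0.35, Gne at 0.19, Gnpnat1 at -0.35, Gmds at -0.37, Gfus at -0.17 and Nans at -0.02.

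Among other sugar and sialic acid carriers 3 of 10 were detected: Slc5a2, a sodium-coupled glucose carrier known from the kidney, Slc17a5, the lysosomal sialic acid exporter, and Slc50a1. Slc5a1, Slc5a4, Slc5a10, Slc5a11 and Slc45a1 were on no array. Of the glucose-6-phosphatase genes, which act on the sugar phosphate that Slc37a4 carries, G6pc3 was detected at 1.91, 1.79, 2.20 and 2.11, and G6pc1, the liver and kidney form, was not.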

How the data were processed

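Messenger RNA was measured on 1-colour Agilent rat arrays in 4 samples of nanotube-exposed NR8383 cells. The authors deposited linear spot intensities, read with Agilent Feature Extraction 11.0.1.1 per the file headers. The processed signal had background and spatial trend removed array by array, with no scaling between arrays, per the file headers. All 4 arrays share 1 slide and 1 scan.

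From the deposited intensities, log2 was taken, spots marked non-uniform or as population outliers were dropped, spots were averaged per probe and the array's 75th percentile was subtracted. No sample spot was saturated. A gene took its brightest probe. Accessions were named through a RefSeq table of GRCr8 (21109 of 45598 probes matched); the headers name an older build, so only the promoter windows carry coordinates. No model was fitted, as there is 1 group; Python 3.11.15 with pandas 2.3.3 was used, with limma 3.58.1 for normexp (offset 50). The procedure was tested on simulated data.

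Carriers and lists were chosen with earlier results of these data known. Carriers are named with their detection; some items that this rule or the list rule would name are not reported here. For named pathway enzymes beyond that rule the text says so. Values per array are given for each carrier detected on all 4 arrays. For pathway lists, up to 4 detected genes in alphabetical order and, those on no array are named. The motifs and the genes whose promoters are shown were chosen after the data were seen, the latter as the 2 highest and 2 lowest deviations on replicate 4. Alternatives were other scalings, backgrounds, detection marks, probe and flag rules, leaving out each replicate and leaving out the low-signal area. The normexp alternative used the spot median signal, since the mean signal planned for it was not a column used here. Arrays give no read depth; precision is limited by their number and by how far signals exceed background.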

Additional observations from a re-analysis of the deposited data

Results flagged for a closer look

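Slc2a9 stood apart on 1 array. Its level of 4.20 on replicate 4 lay away from 3.92, 3.94 and 3.91 on the other 3, and that gap was 0.882 of its whole range, above Dixon's critical value for 4 samples. It was the only such case among the 25 detected carriers, or 4.00%, and 3.18% of all detected genes met the same criterion. Chance gives about 1 in 20. The gap amounts to a small difference, since its highest array was 1.22-fold its lowest.

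The second probe of Slc37a1 was not used for its level but was well above background on all 4 arrays, with a mean of -0.85 ± 1.01 (SD, n = 4). The probe used had an SD of 0.49.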

How the results depend on the processing

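The detection call is the software's own flag against background, so the choice of scaling and the normexp alternative do not enter it. The lowest level of a flagged spot was -2.56 on replicate 1 and -1.24 on replicate 4. The number of detected carriers was 25 and lay between 25 and 26 when a replicate was left out. It was 26 with 3 of 4 arrays, 34 with the positive-and-significant flag (55.7% of all genes) and 23 of 46 without the dim patch of replicate 3. With the normexp background, run on the median spot signal, the median level was 1.76 and the median SD 0.23; with the 75th percentile of detected probes the median level was -1.81; and with the positive-and-significant mark it was 1.33. The number ranging over 1 log2 unit was 12 with spike-in scaling and 9 with the positive-and-significant mark, and lay between 2 and 3 when a replicate was left out. The median SD of all detected genes was 0.58 and 0.29 in the first 2 of these settings. The share of all detected genes with such a range is not given for them. With spike-in scaling the median deviation reversed to 0.21, 0.28 and -0.47 on replicates 1, 2 and 4. That scaling moves all genes of an array alike, and the all-gene medians on these arrays were then 0.37, 0.49 and -0.75. What lowered the total signal of replicate 4 was not tested. The percentile of detected probes is a higher zero point that lowers all genes of an array alike. By construction it lowered the median level, and the mean level of 25 of 25 single carriers by over 1 SD. With normexp the mean level of 20 carriers moved by over 1 SD. No paired analysis was possible because the samples form 1 group. Signal over background limits the 23 carriers on no array, of which 6 met the looser mark.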
